A study of Mus musculus with 12 samples.

Results

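Nuclear receptor genes were examined in maps of CTCF binding from mouse liver. The set held 37 listed receptor genes of 21883 protein-coding genes in the annotation, and all 37 matched by symbol. Merging every peak that shared 1 bp or more with another gave 76061 sites over the 6 lists, and the 316 sites over a receptor gene body or within 20 kb on either side of it were taken as receptor sites. CTCF, a zinc finger protein of insulators and chromatin loop anchors, had been located by chromatin immunoprecipitation with sequencing (ChIP-seq). The starved group had 3 ChIP libraries from livers taken at ZT13 (zeitgeber time, hours after lights on) once the mice had gone 24 h without food. The fed group had 3 ChIP libraries from livers taken at ZT16, with free access to normal chow. Both groups were wild-type male mice of the strain given as C57BL6/Ncrl, 3 to 4 months old, on a 12 h cycle of light and dark. Feeding and collection time differed together between the groups and cannot be told apart. The labels name whole liver, so cells other than hepatocytes can contribute, and peak lists hold no expression with which to check the tissue against its markers. The 3 starved and 3 fed input libraries were not analysed here.

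Nuclear receptors are transcription factors that bind DNA through zinc fingers, and many of them switch target genes on when a small lipophilic ligand such as a hormone, a fatty acid, an oxysterol or a bile acid enters their pocket. Many act as heterodimers with a retinoid X receptor, and in liver they tie the supply of fat, sterols, bile acids and foreign compounds to the genes that handle them. Orphan members have no accepted ligand, and the Nr4a members are switched on as immediate-early genes.

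The promoter sequences of 5 receptors are shown because a CTCF site of the liver lay over them, for Ppard, Nr2c1 and Thrb in all 6 libraries, and for Nr4a1 and Rarb in the 3 fed libraries alone. Another 3 promoters under sites in all 6 libraries, 2 of Nr1h3 and 1 of Pparg, held no match to the CTCF core described next and are not printed. Each run is the 250 bases before an annotated transcript start, read 5′ to 3′ on the strand of the gene, from RefSeq on GRCm38.p6 (the same build as mm10). They are Ppard chr17:28232504-28232753 (+), Nr2c1 chr10:94147681-94147930 (+), Thrb chr14:17660710-17660959 (+), Nr4a1 chr15:101266596-101266845 (+) and Rarb chr14:16575477-16575726 (−). The starts of Nr2c1, Thrb, Nr4a1 and Rarb lie inside the annotated gene. Capitals mark matches to the 7-letter core of the CTCF motif, searched on both strands as AGNNGGC with A or G at the first N and G or T at the second. Matches on the same strand cannot overlap each other.
Ppard: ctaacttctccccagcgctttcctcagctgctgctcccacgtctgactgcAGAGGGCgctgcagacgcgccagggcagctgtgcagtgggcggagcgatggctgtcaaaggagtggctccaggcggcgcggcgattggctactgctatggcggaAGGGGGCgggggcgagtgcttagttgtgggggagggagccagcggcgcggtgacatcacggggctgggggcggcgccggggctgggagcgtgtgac
Nr2c1: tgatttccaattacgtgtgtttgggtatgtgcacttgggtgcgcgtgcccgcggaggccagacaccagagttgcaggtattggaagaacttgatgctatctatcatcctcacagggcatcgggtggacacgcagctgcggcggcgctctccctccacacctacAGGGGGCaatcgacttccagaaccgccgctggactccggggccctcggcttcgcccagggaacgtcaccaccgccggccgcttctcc
Thrb: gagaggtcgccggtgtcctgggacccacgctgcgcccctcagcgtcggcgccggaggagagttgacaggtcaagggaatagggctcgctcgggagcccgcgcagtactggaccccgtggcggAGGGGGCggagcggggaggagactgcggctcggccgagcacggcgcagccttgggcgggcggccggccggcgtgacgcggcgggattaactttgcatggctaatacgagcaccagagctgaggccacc
Nr4a1: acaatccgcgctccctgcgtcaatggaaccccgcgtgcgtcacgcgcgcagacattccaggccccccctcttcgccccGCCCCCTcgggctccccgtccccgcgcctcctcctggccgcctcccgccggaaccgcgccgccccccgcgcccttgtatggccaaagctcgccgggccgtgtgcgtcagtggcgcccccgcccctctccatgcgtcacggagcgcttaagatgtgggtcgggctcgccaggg
Rarb: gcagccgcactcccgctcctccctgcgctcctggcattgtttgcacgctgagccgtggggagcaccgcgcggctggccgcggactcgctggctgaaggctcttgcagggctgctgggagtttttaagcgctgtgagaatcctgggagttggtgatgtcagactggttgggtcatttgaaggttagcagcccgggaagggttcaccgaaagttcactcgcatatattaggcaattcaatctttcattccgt
Ppard had matches at bases 51 and 155 of the run, Nr2c1 at base 164 and Thrb at base 123, all on the gene's strand. Nr4a1 had a match at base 79 on the other strand, and Rarb had none, with 205 of its 250 bases under the site. A match is a description of the letters and not a bound site. RefSeq promoters, counted as 250 bases before to 50 after a start, were at hand for 34 receptors, with 53 windows between them. A core match was found in 15 of the 53 (28.3%), against 29.9% of all 21229 promoters. Of the 15 receptor promoters under a site called in all 3 fed libraries, 6 (40%) held a match, and of the 38 without such a site 9 (23.7%) did. Of the 6 receptor promoters under a site in all 6 libraries, 3 held a match. Among all promoters, 50.2% of those under a site in all 6 libraries held a match, against 26.1% of those without a site called in all 3 fed libraries.

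Starved lists were shorter over the receptors as over the genome. Starved libraries 1, 2 and 3 had 120, 90 and 115 receptor sites, against 216, 187 and 311 in fed libraries 1, 2 and 3. Every starved value lay below every fed value. The mean was 108 ± 16.1 sites in starved and 238 ± 64.9 in fed livers (SD, n = 3 each), a log2 ratio of −1.14 with an exact permutation p = 0.1. That p is the smallest that 3 libraries against 3 can give in the two-sided exact permutation test used for all values per library, and as no label ties the libraries of a group to different animals, a p here sets the states against library spread that may be technical. The lists themselves held 30752, 23926 and 29866 peaks in starved and 56103, 49030 and 74950 in fed livers, and the read depth behind them is unknown.

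As a share of each library's own sites, the receptors took 0.404%, 0.388% and 0.400% in starved livers 1, 2 and 3 and 0.396%, 0.394% and 0.419% in fed livers 1, 2 and 3. The ranges overlapped. The mean share was 0.397 ± 0.00847% in starved and 0.403 ± 0.0141% in fed livers (SD, n = 3 each), which differ by −0.0056 points (exact permutation p = 0.7). The sign of that difference turned with 3 other settings and when fed library 3 was left out, and over gene bodies alone it was −0.039 points (exact permutation p = 0.1). At least 1 site was called at 35, 33 and 34 of the 37 receptors in starved libraries and at 36 in each fed library, a mean difference of −2 (exact permutation p = 0.1). In lists of equal length that difference was 0 (exact permutation p = 1), over gene bodies alone −8.33 and with a stricter score limit −9.33. Per 100 kb of window, receptors had 2.17, 1.63 and 2.08 sites in the starved libraries and 3.91, 3.38 and 5.62 in the fed libraries. The windows of all protein-coding genes had 1.71, 1.31 and 1.64 sites per 100 kb in the starved and 3.12, 2.71 and 4.29 in the fed libraries. Receptors were thus denser in all 6 libraries, by a log2 ratio of 0.33 ± 0.02 in starved and 0.34 ± 0.04 in fed livers (SD, n = 3 each), and the states differed by −0.01 (exact permutation p = 0.8), a sign that turned with flanks of 50 kb, without starved library 2 and without fed library 3. Over gene bodies alone the same log2 ratio was −0.21 in starved and −0.03 in fed livers, so the receptors were no denser than protein-coding genes there, and the states differed by −0.18 (exact permutation p = 0.1).

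A fed site is used below for a site called in all 3 fed libraries, and a fed-only site for a fed site called in no starved library. The receptors had 174 fed sites. Of these, 88 (50.6%, exact 95% interval 42.9 to 58.2) were called in all 3 starved libraries, against 49.3% of all 44909 fed sites. A further 38 (21.8%) were called in 1 or 2 starved libraries. The remaining 48 (27.6%, exact 95% interval 21.1 to 34.9) were fed-only, against 29.1% of all fed sites. Counting error is all that these intervals cover, since sites of 1 liver are no replicates of it. Both shares at the receptors lay near those of the genome. Starved libraries 1, 2 and 3 held 66.7%, 51.7% and 65.5% of the receptors' fed sites, against 64.9%, 51.6% and 63.6% of all fed sites. No receptor site of the 316 was called in more starved than fed libraries, and such sites were rare over the genome, 82 of 76061. Outside the fed sites, 137 sites were called in 1 or 2 fed libraries and no starved library, and 5 in 1 or 2 fed libraries and at least 1 starved library. Over the genome these were 30459 and 611 of 76061 sites, the latter without the 82.

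**Figure D1:**
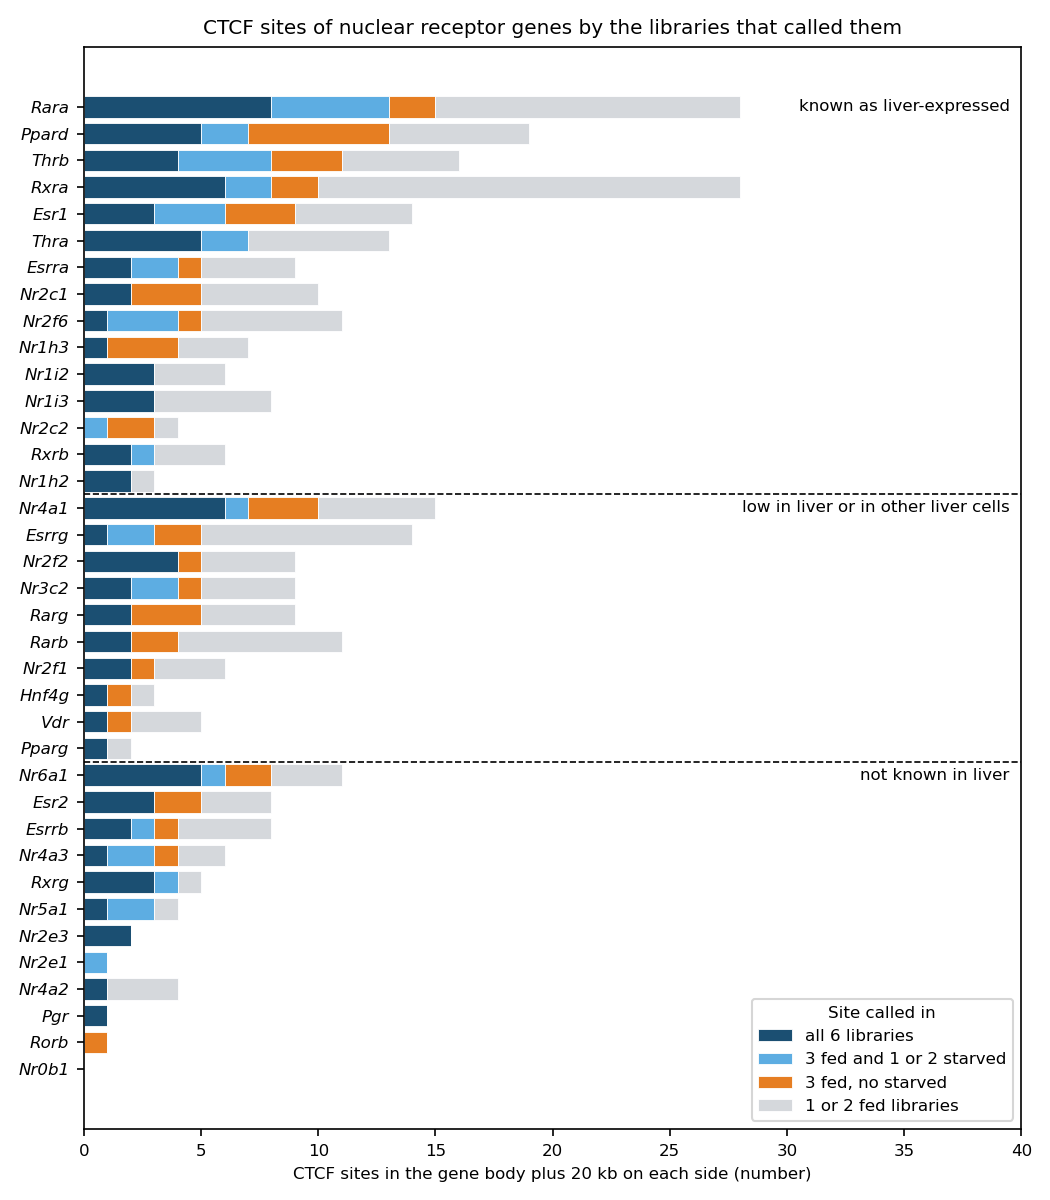
Number of CTCF sites in the window of each of the 37 receptors (horizontal axis), split by the libraries that called them. Rows run by class, with the 15 receptors known as liver-expressed on top, and within a class by the number of sites called in all 3 fed libraries. Rara and Rxra have the most sites, 28 each, and Nr0b1 has none.

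Counted by gene, 36 of the 37 receptors (97.3%) had a fed site in the window, against 78.3% of protein-coding genes. A site called in all 6 libraries was present at 33 receptors (89.2%), against 64.9% of protein-coding genes, and a fed-only site at 24 receptors (64.9%), against 47.1%. Receptor windows were longer, with a median of 86.5 kb against 57.2 kb, so these shares are also given by length. In windows up to 60 kb, 10 of 11 receptors (90.9%) had a fed site, against 69.2% of protein-coding genes, the same 90.9% a site in all 6 libraries, against 56.9%, and 5 (45.5%) a fed-only site, against 37.3%. Between 60 and 100 kb, all 12 receptors had a fed site, against 86.1%, 11 (91.7%) a site in all 6 libraries, against 70.9%, and 7 (58.3%) a fed-only site, against 51.9%. Over 100 kb, all 14 had a fed site, against 93.5%, 12 (85.7%) a site in all 6 libraries, against 79.5%, and 12 a fed-only site, against 68.1%. In each length class the receptors' shares were the higher, but their windows were also longer within the class. From the shortest class to the longest, median windows were 49.9, 81.3 and 211 kb at receptors, against 46.3, 72.2 and 153 kb. Median fed sites per 100 kb were 6.44, 5.04 and 1.64 at receptors, against 3.78, 3.46 and 2.22. Over 100 kb the receptors were thus the less dense. Nr0b1, an orphan repressor of steroidogenic tissues that lacks the usual DNA-binding domain, had no site in any library. Rorb, an orphan receptor of retina and brain, had a fed site but no site kept in any starved library. It was the 1 such receptor of the 37 (2.7%), against 5.1% of protein-coding genes.

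The receptors were divided by textbook knowledge of where they are expressed, with earlier results of these data known. A class of 15 is known as expressed in liver, 10 as low in liver, inducible there or found in its other cells, and 12 as receptors of other tissues. Liver-expressed receptors had 3.65, 2.56 and 3.48 sites per 100 kb of window in starved livers 1, 2 and 3 and 6.64, 5.61 and 9.80 in fed livers 1, 2 and 3. The other 22 had 1.44, 1.16 and 1.38 in starved and 2.55, 2.27 and 3.55 in fed livers. In all 6 libraries the liver-expressed class was the denser. The log2 ratio of liver-expressed over other receptors was 1.27 ± 0.12 in starved and 1.38 ± 0.08 in fed livers (SD, n = 3 each), and the states differed by −0.11 (exact permutation p = 0.3).

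Single receptors ranged widely. The densest were Rara, Nr4a1, Ppard, Nr2f6 and Thra, with 17.2, 16.4, 12, 10.4 and 10.3 fed sites per 100 kb, of which Nr4a1 is outside the liver-expressed class. The thinnest were Nr0b1, Rorb, Rarb, Pparg and Esrrg, with 0, 0.453, 0.578, 0.59 and 0.774, none of them liver-expressed. The median was 6.68 for liver-expressed and 2.06 for other receptors, against 3.17 for protein-coding genes.

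The gap between the classes rests on how the middle class is counted. With those 10 receptors added to the liver-expressed class, the log2 ratio was 0.09 ± 0.04 in starved and 0.50 ± 0.22 in fed livers (SD, n = 3 each), and the states differed by −0.41 (exact permutation p = 0.1). Gene surroundings moved with the classes, while the median window was 86.5 kb for liver-expressed and 87.6 kb for other receptors. The median number of other protein-coding genes per 100 kb of window was 2.93 for liver-expressed receptors and 0 for the other receptors, against 2.05 over all protein-coding genes. Across the 37 receptors, window length and fed sites per 100 kb had a Spearman correlation of −0.47. Within length classes, the median was 6.74 fed sites per 100 kb for 6 liver-expressed and 3.44 for 5 other receptors up to 60 kb, 7.92 for 4 and 4.92 for 8 between 60 and 100 kb, and 2.61 for 5 and 0.911 for 9 over 100 kb. The part of gene surroundings in the gap was not tested.

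**Figure D2:**
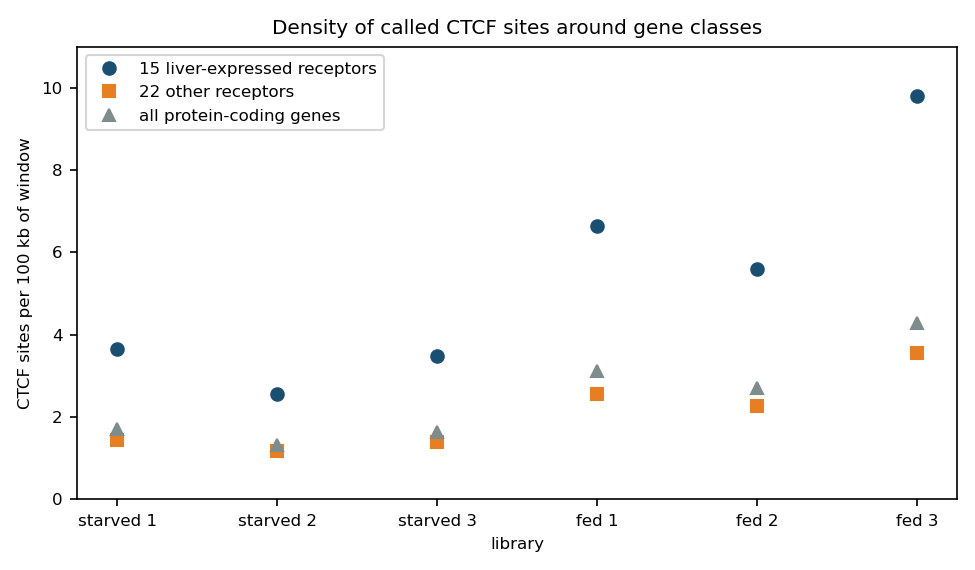
Called CTCF sites per 100 kb of window (vertical axis) in each of the 6 libraries (horizontal axis) for the 15 liver-expressed receptors, the 22 other receptors and all protein-coding genes, 1 point per class and library. The liver-expressed receptors lie above protein-coding genes and the other receptors below them in every library.

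Retention after starvation was then set side by side for both classes. Liver-expressed receptors had 98 fed sites, of which 47 (48.0%, exact 95% interval 37.8 to 58.3) were called in all 6 libraries and 26 (26.5%) were fed-only. Other receptors had 76, of which 41 (53.9%, exact 95% interval 42.1 to 65.5) were called in all 6 libraries and 22 (28.9%) were fed-only. Starved libraries held 59.9 ± 10.4% of the fed sites of liver-expressed receptors and 63.2 ± 5.74% of those of the other receptors (SD, n = 3 each). The difference of −3.29 points was smaller than its SD of 5.1 points over the 3 libraries, and became 10.4 points with a stricter score limit and −11.5 with the wider class. Between families, the share in all 6 libraries ran from 5 of 14 fed sites (35.7%) at the estrogen-related receptors to 11 of 17 (64.7%) at the retinoid X receptors, and the exact 95% intervals of these extremes, 12.8 to 64.9 and 38.3 to 85.8, overlapped.

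In the account of single receptors, a site's rank is the percentile of its score within that library's own list, with 100 the highest. The score is the authors' own value for a peak, and ranks from lists of different length do not measure a change. At many sites below, every starved rank lay under every fed rank in the full lists, but the groups overlapped in lists of equal length. Among these were the best sites of Nr1h2, Nr1h3, Nr1i2, Esr1, Esrra, Nr2f2 and Hnf4g and the site over the Thrb promoter shown above. The thyroid hormone and retinoic acid receptors had 42 fed sites, 21 of them in all 6 libraries and 10 fed-only. Rara, a retinoic acid receptor found in most tissues, was the densest of all 37, with 17.2 fed sites per 100 kb, at percentile 99.7 of protein-coding genes. Its best-ranked site lay inside the gene (chr11:98954009-98954944) and ranked 93.1, 92.9 and 93.5 in starved 1, 2 and 3 and 96.3, 97.4 and 99.3 in fed 1, 2 and 3. That site was high in every list, and 7 more of the 15 fed sites of Rara were called in all 6 libraries, while 2 were fed-only. Sites around Rara numbered 11, 8 and 10 in starved and 20, 15 and 26 in fed libraries.

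Thra, the thyroid hormone receptor best known from heart and brain, had 7 fed sites and no fed-only site. The best of them, 17.5 kb outside the gene (chr11:98786460-98789326), ranked 97.9, 96.9 and 90.1 in starved and 97.0, 89.0 and 99.4 in fed libraries. A site inside the gene (chr11:98754214-98755252) ranked 99.1, 93.7 and 99.1 in starved and 88.6, 97.6 and 90.8 in fed libraries. Starved and fed ranks overlapped at both. Thrb, the thyroid hormone receptor that predominates in liver, had 11 fed sites, all over its gene body of 381 kb, and 3 of them were fed-only. Its best site lay over the annotated gene start (chr14:17658777-17659614) and ranked 79.7, 90.8 and 75.9 in starved and 94.8, 86.0 and 92.3 in fed libraries. The promoter shown above lay under a neighbouring site 0.73 kb into the gene, with ranks of 43.7, 26.6 and 42.1 in starved and 68.4, 68.1 and 80.7 in fed libraries. Only 4 sites of Thrb were called in starved 2, against 8 in starved 1 and 7 in starved 3.

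Rarb, a retinoic acid receptor that is itself induced by retinoic acid, spread 4 fed sites over a window of 691 kb. The promoter shown above lay under a fed-only site (chr14:16575522-16575900), with ranks of 50.4, 42.3 and 65.1 in the fed libraries. The best site of the gene (chr14:16434136-16434930) ranked 88.3, 91.9 and 82.7 in starved and 89.5, 91.9 and 91.3 in fed libraries, so its groups overlapped. Rarg, the retinoic acid receptor of skin, had 5 fed sites, of which 2 were called in all 6 libraries and 3 were fed-only. Its best site lay over the neighbouring gene Itgb7 and ranked 98.3, 94.9 and 82.8 in starved and 98.1, 81.3 and 90.4 in fed libraries.

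The retinoid X receptors, the shared partners of many of the others, had 17 fed sites, 11 of them in all 6 libraries and 2 fed-only. Rxra, the main retinoid X receptor of liver, had 28 sites, of which 10 were fed sites and 18 were called in 1 or 2 fed libraries. The highest of them lay beyond the gene's end, 88.3 kb from its start (chr2:27764701-27765659) and ranked 92.3, 79.9 and 82.1 in starved and 92.2, 86.5 and 92.6 in fed libraries. Another 2 sites further out in the same flank were also called in all 6 libraries. Rxrb, which lies in the major histocompatibility region, had its best site inside the gene (chr17:34033559-34034748), with ranks of 54.6, 56.0 and 61.8 in starved and 69.0, 80.8 and 87.2 in fed libraries. In lists of equal length, described below, its starved and fed ranks overlapped. Rxrg, the retinoid X receptor of muscle and brain, had 4 fed sites and no fed-only site, and its best site ranked 98.4, 92.3 and 88.5 in starved and 94.4, 90.9 and 91.8 in fed libraries.

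**Figure D3:**
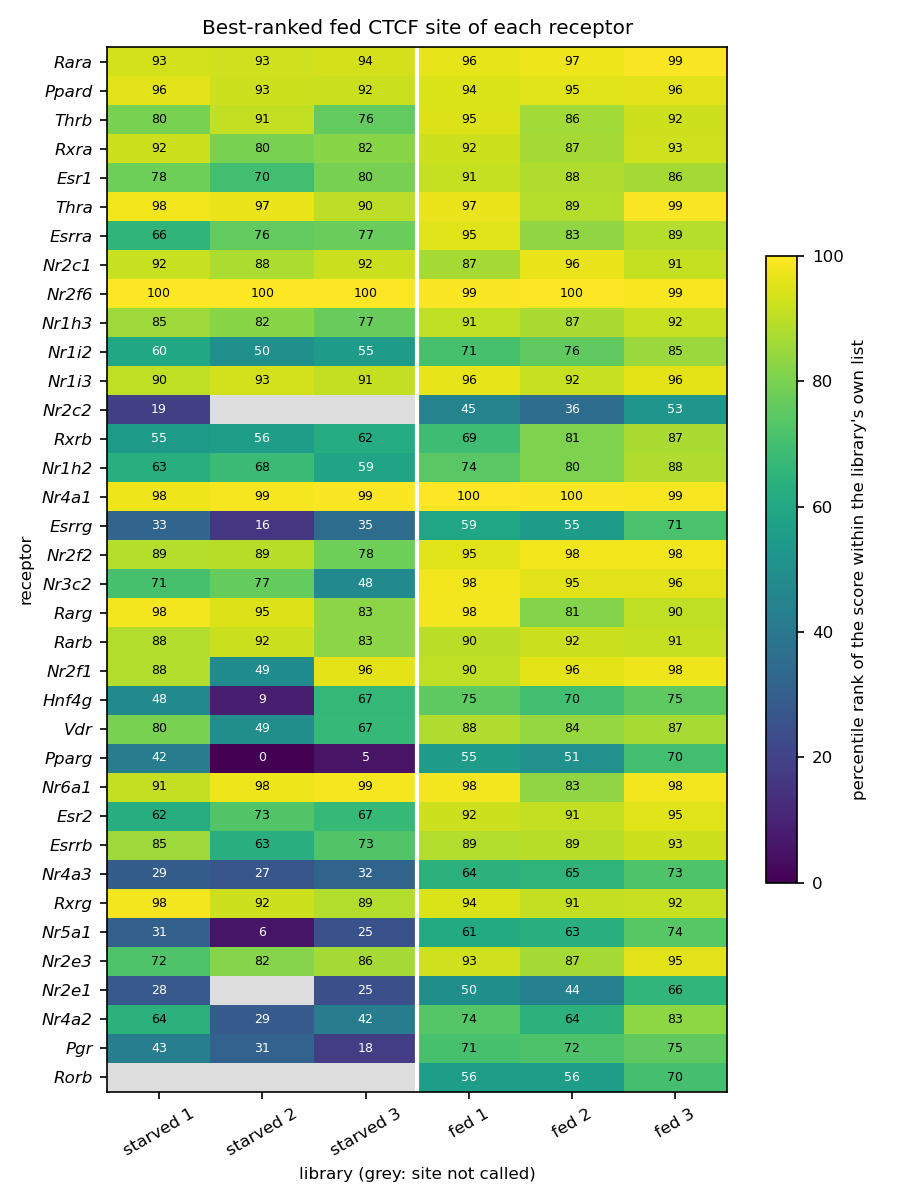
Percentile rank of the best-ranked fed site of each of 36 receptors (rows) in the 3 starved and 3 fed libraries (columns), each rank taken within the library's own list. Grey cells are libraries without a called peak. The best site was called in all 6 libraries for 33 receptors, and Rorb is grey in all 3 starved libraries.

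The sensors of lipids, sterols and foreign compounds had 28 fed sites, 16 of them in all 6 libraries, 2 in some starved libraries and 10 fed-only. Ppard, the fatty acid sensor found in most tissues, carried 13 fed sites, with 5 in all 6 libraries and 6 fed-only, the most fed-only sites of any receptor. Its best site by fed rank lay over the neighbouring gene Def6 (chr17:28225553-28226693) and ranked 95.7, 92.6 and 91.9 in starved and 94.4, 95.2 and 95.5 in fed libraries. The site over its gene start (chr17:28231951-28233482), which covers the promoter shown above, ranked 94.2, 99.2 and 98.5 in starved and 89.1, 91.2 and 95.6 in fed libraries. Both sites were high in every list. Of the 6 fed-only sites, 3 lay beyond the gene's end, 2 inside the gene and 1 over Def6.

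Pparg, the regulator of fat cell formation that is low in healthy liver, had a single fed site in a window of 170 kb. It lay over the gene start (chr6:115360735-115361257) and ranked 42.2, 0.0272 and 5.36 in starved and 55.1, 50.7 and 69.8 in fed libraries. The site was called in all 6 libraries but stood near the bottom of the list in starved 2 and starved 3. In lists of equal length, described below, it was present in starved 1 and starved 2, at ranks of 25.8 and 0.0272. Among the fed lists of equal length only fed 3 held it, at rank 5.55.

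Nr1h3 (LXR alpha), the oxysterol sensor of liver, had 4 fed sites, of which 1 was called in all 6 libraries and 3 were fed-only. The shared site lay inside the gene (chr2:91194176-91195191) and ranked 85.3, 82.4 and 76.8 in starved and 90.6, 87.2 and 91.6 in fed libraries. It was the 1 site of Nr1h3 in each starved library, against 4, 4 and 7 sites in the fed libraries. Nr1h2 (LXR beta), its relative found in most tissues, had 2 fed sites, both in all 6 libraries and neither fed-only. The better of them lay over Pold1 (chr7:44548697-44549248) and ranked 63.2, 68.3 and 58.5 in starved and 74.4, 80.5 and 88 in fed libraries.

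Nr1i2 (PXR), the sensor of drugs and steroids, had 3 fed sites, all in all 6 libraries. Its best site lay over Gsk3b (chr16:38239483-38240635) and ranked 59.7, 50.1 and 55.3 in starved and 70.8, 75.6 and 85.0 in fed libraries. Nr1i3 (CAR), the other drug sensor of liver, likewise had 3 fed sites, all in all 6 libraries and all outside the gene. Neither drug sensor had a fed site over its own gene body, and the Nr1i3 window holds 5 other protein-coding genes. Vdr, the vitamin D receptor, had 2 fed sites, and the better ranked 79.7, 49.4 and 67.2 in starved and 88.1, 84.0 and 87.1 in fed libraries.

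**Figure D4:**
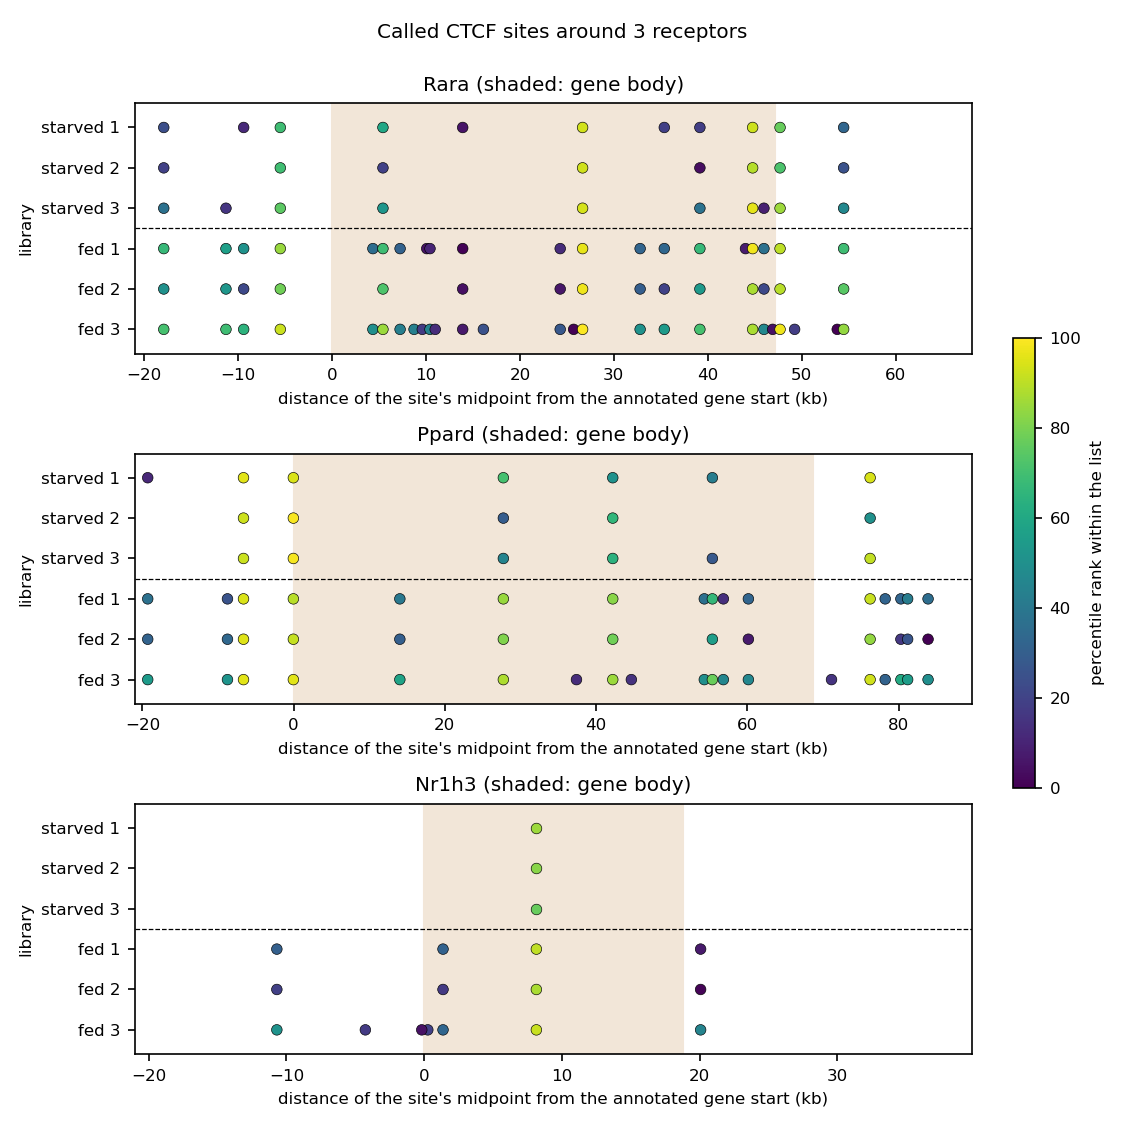
Called CTCF sites around Rara, Ppard and Nr1h3 by the distance of the site's midpoint from the annotated gene start (horizontal axis, kb), with 1 row per library, starved above fed. Points are coloured by percentile rank within the list and the gene body is shaded. Nr1h3 shows 1 site in each starved library and 4, 4 and 7 in the fed libraries.

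The steroid receptors had 20 fed sites, 9 in all 6 libraries and 6 fed-only, and the estrogen-related receptors had 14, 5 in all 6 libraries and 4 fed-only. Esr1, the estrogen receptor of liver, had 9 fed sites, split evenly between all 6 libraries, some starved libraries and fed-only. The highest-ranked lay 13.2 kb before the gene (chr10:4598289-4598831) and ranked 78.1, 69.6 and 79.6 in starved and 91.2, 87.9 and 86.5 in fed libraries. The site over the annotated start (chr10:4611670-4612149) was called in starved 3 alone among the starved libraries, at rank 14.2, and ranked 51.5, 51.1 and 69.3 in fed libraries. Esr2, the other estrogen receptor, had 5 fed sites, with 3 in all 6 libraries and 2 fed-only. Its best site ranked 62.3, 72.7 and 66.9 in starved and 92.4, 90.8 and 95 in fed libraries. Nr3c2, the mineralocorticoid receptor, had 5 fed sites, and the best, inside the gene (chr8:77154332-77155087), ranked 71.0, 76.5 and 47.5 in starved and 97.9, 95.5 and 95.6 in fed libraries. At the best sites of Esr2 and Nr3c2 every starved rank lay below every fed rank in lists of equal length, described below. At the best site of Esr1 the groups overlapped in those lists. Pgr, the progesterone receptor, had 1 site, called in all 6 libraries and ranked 42.6, 31.3 and 18.2 in starved and 71.0, 71.9 and 75.4 in fed libraries.

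Esrra, a coactivator-driven regulator of mitochondrial genes, had 5 fed sites in a window with 6 other protein-coding genes. The strongest by rank lay over Catsperz (chr19:6924200-6925194) and ranked 65.5, 75.8 and 77.1 in starved and 95, 83.4 and 88.9 in fed libraries. Esrrb, a factor of embryonic stem cells, had its best site at 85.4, 63.2 and 72.7 in starved and 88.5, 89.3 and 92.6 in fed libraries. Esrrg, the estrogen-related receptor of oxidative tissues, was thinly covered, with 0.774 fed sites per 100 kb over a window of 646 kb. Of its 5 fed sites 1 was called in all 6 libraries, at ranks of 32.8, 15.9 and 35.4 in starved and 59.3, 55.1 and 71.2 in fed libraries. In lists of equal length, described below, the order turned, with 13.6, 15.9 and 19.4 in starved and 4.64, 8.04 and 9.68 in fed lists (limma adjusted p = 0.736).

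The Nr2 orphan receptors had 26 fed sites, 12 in all 6 libraries and 9 fed-only. Nr2f6, a repressor related to the COUP factors, had the best-ranked site of all receptors. It lay over the neighbouring gene Ocel1 (chr8:71371192-71372201) and ranked 99.9, 99.9 and 100 in starved and 99.3, 100 and 99.0 in fed libraries. It was the only site of Nr2f6 in all 6 libraries, and the other 4 fed sites were called in at most 2 starved libraries. Nr2f2 (COUP-TFII), a regulator of vein and mesenchyme identity, had 5 fed sites, 4 of them in all 6 libraries. The best lay beyond the gene (chr7:70334685-70335584) and ranked 89.1, 89.4 and 77.8 in starved and 95.1, 97.8 and 97.7 in fed libraries. Nr2f1, its close relative, had its best site at 88.5, 48.6 and 95.8 in starved and 90.3, 95.7 and 97.6 in fed libraries, with starved 2 apart from the rest.

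Nr2c1 and Nr2c2 (TR2 and TR4), which pair with each other as repressors, differed at their starts. At Nr2c1 the site over the gene start (chr10:94147253-94148210), which covers the promoter shown above, ranked 91.7, 87.5 and 91.9 in starved and 86.6, 96.5 and 91.4 in fed libraries. At Nr2c2 the site over the gene start (chr6:92091054-92092028) was fed-only and ranked 11, 1.91 and 39.4 in fed libraries. Nr2c2 had no site in all 6 libraries, and its single site in a starved library ranked 19.0 in starved 1. Nr2e3, a receptor of photoreceptors, had 2 sites, both in all 6 libraries, and Nr2e1, a receptor of neural stem cells, had 1 site, called in the fed libraries and in starved 1 and starved 3. Hnf4g, the relative of the main hepatocyte factor Hnf4a, had 2 fed sites, 1 in all 6 libraries at ranks of 47.7, 8.58 and 66.6 in starved and 75.2, 69.9 and 75.3 in fed libraries, and 1 fed-only.

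The Nr4a immediate-early receptors had 15 fed sites, 8 in all 6 libraries and 4 fed-only. Nr4a1, which is induced by glucagon in liver, had 10 of these sites and 16.4 per 100 kb, at percentile 99.5 of protein-coding genes. Its best site lay beyond the gene (chr15:101282947-101284246) and ranked 97.6, 98.5 and 99.3 in starved and 99.7, 99.5 and 98.9 in fed libraries. A site before the gene (chr15:101240298-101241379) ranked 96.0, 85.2 and 74.5 in starved and 98.8, 88.2 and 97.5 in fed libraries, with overlapping groups. Both fed sites inside the Nr4a1 gene were fed-only, the better of them (chr15:101266501-101266971) over the promoter shown above, with ranks of 31.3, 18.6 and 58.9 in the fed libraries. The 6 sites in all 6 libraries all lay in the flanks. Nr4a2 had 1 fed site, in all 6 libraries, and Nr4a3 had 4, of which the site over the gene start was called in starved 1 and starved 2 at ranks of 11.3 and 6.13, against 50.7, 41.3 and 63.8 in fed libraries.

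Of the other orphan receptors, Nr6a1, the germ cell nuclear factor, had 8 fed sites, 5 of them in all 6 libraries. The top site lay 0.378 kb before the gene and ranked 90.7, 97.5 and 98.7 in starved and 98.1, 83.3 and 98.3 in fed libraries. Nr5a1, the steroidogenic factor, had 3 fed sites, 1 in all 6 libraries at 30.6, 5.62 and 25.1 in starved and 61.2, 63.5 and 74.1 in fed libraries. Its window overlaps that of Nr6a1, but no site fell to both. Rorb had 1 site (chr19:18974859-18975509), fed-only, at ranks of 55.9, 55.7 and 70.3, which was the best-ranked of the receptors' 48 fed-only sites by mean fed rank.

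The 10 best-ranked fed-only sites stood in the middle of the fed lists, at mean fed ranks between 42.3 and 60.7. After Rorb came a site inside Hnf4g, with ranks of 54.4, 51.5 and 67.7 in fed 1, 2 and 3, and then the Rarb site given above. A site inside Esr2 ranked 53.7, 36.2 and 62.9, and a site inside Esrrb 53.4, 30.3 and 66.3. Fed 3, the longest list, gave the highest rank at all 10. Nr2f1 had a site in its flank at 40.4, 37.7 and 63.9, and Vdr a site over Hdac7 at 33.0, 38.1 and 61.4. Inside Esrrg a site ranked 39.0, 32.0 and 57.3. At the liver-expressed receptors, a site inside Ppard ranked 39.9, 29.9 and 58.2 and a site inside Thrb 32.6, 32.0 and 62.4. Liver-expressed receptors thus held 2 of the 10, against 26 of all 48 fed-only receptor sites. No starved library called any of these sites.

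Where a site stood in the fed lists went with whether it was kept. Of 49 receptor fed sites with a mean fed rank from 80 to 100, all 49 were called in all 6 libraries, against 99.97% over the genome. From 60 to 80 it was 37 of 43 (86.0%), against 82.2%. From 40 to 60 it was 2 of 39 (5.13%), against 10.1%, and below 40 it was 0 of 43 sites. The 2 sites of the middle range were at Pparg, over the gene start, and at Rarb. Over the receptors' own gene bodies 39 of 94 fed sites (41.5%) were called in all 6 libraries, and in their flanks, which hold other genes too, 49 of 80 (61.3%). Over any protein-coding gene body it was 58 of 129 (45.0%) in receptor windows, against 45.9% over all protein-coding genes, and outside gene bodies 30 of 45 (66.7%), against 56.9%. Median fed rank moved with it, at 57.5 over the receptors' gene bodies and 66.8 in their flanks, and its part in the difference was not tested. Within 1 kb of a receptor's start, 12 of 21 fed sites (57.1%) were called in all 6 libraries and 2 (9.52%) were fed-only, against 41.5% and 28.8% of 7039 fed sites within 1 kb of any protein-coding gene's start. The annotated gene start itself lay under a fed site at Esr1, Nr2c1, Nr2c2, Nr4a3, Ppard, Pparg and Thrb. At Esrrg, Nr2f1, Nr4a1, Nr4a2, Rxrg and Thra it lay under a site called in 1 or 2 fed libraries and no starved library.

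To compare ranks between states, each list was cut to its 23926 highest scores, as many peaks as starved 2 holds. Receptors then had 96, 90 and 97 sites in starved and 95, 95 and 97 in fed libraries. Of 85 receptor sites in all 3 fed lists of equal length, 78 (91.8%) were in all 3 starved lists, against 88.9% of all such sites. None was absent from all 3 starved lists, and over all sites that was rare too, 261 of 21707. The other 7 were in 2 starved lists each and lay at Esrrb, Nr4a3, Nr6a1, Pgr, Ppard, Rara and Rxra. Of 82 receptor sites in all 3 starved lists of equal length, 4 (4.88%) were in fewer than 3 fed lists, against 4.26% of all such sites. At Nr2f1, Nr4a1 and Rara such a site was in 2 fed lists, and at Rarb a site inside the gene (chr14:16526260-16526477) was in no fed list of equal length, although the full lists call it in all 6 libraries. In the full lists that Rarb site ranked 30.7, 12.5 and 30.01 in starved and 47.9, 32.9 and 64.0 in fed libraries.

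Over the 78 receptor sites in all 6 lists of equal length, none had a shifted rank at an adjusted p under 0.05 (limma with trend, Benjamini-Hochberg over 19291 sites), against 0.0311% of all sites, and the lowest adjusted p was 0.207. At an unadjusted limma p under 0.05 there were 10 (12.8%), against 10.2% of all sites, 6 of them higher and 4 lower after starvation. Every starved rank lay above every fed rank at 7 of the 78 sites, against 1401 of all 19291 (7.26%). Below it lay at another 7 of the 78, against 1497 of all 19291 (7.76%). The median shift over the 78 sites was 0.308 percentile points, against −0.204 over all sites.

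Among the 10, the site with the lowest p was the site inside Nr3c2, with equal-length ranks of 62.8, 76.5 and 34.5 in starved and 95.1, 90.7 and 86.2 in fed lists, a difference of −32.7 ± 9.8 points (SE, limma adjusted p = 0.207). A site inside Esrrb (chr12:86433083-86433852) had 26, 54.1 and 34.4 in starved and 74.2, 79.4 and 67.6 in fed lists, a difference of −35.6 ± 10.7 points (SE, limma adjusted p = 0.208). The groups did not overlap at either site. The site over the start of Ppard had 92.6, 99.2 and 98.1 in starved and 74.5, 82.0 and 86.3 in fed lists, a difference of 15.7 ± 5.34 points (SE, limma adjusted p = 0.289). The site inside Thra had 98.9, 93.7 and 98.9 in starved and 73.3, 95.1 and 71.2 in fed lists, a difference of 17.3 ± 5.7 points (SE, limma adjusted p = 0.268), with fed 2 inside the starved range. The other 6 lay at Nr2f2, Esr2, Rxrb, Rara, Thra and Ppard, with differences between −21.6 and 20.1 points.

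**Figure D5:**
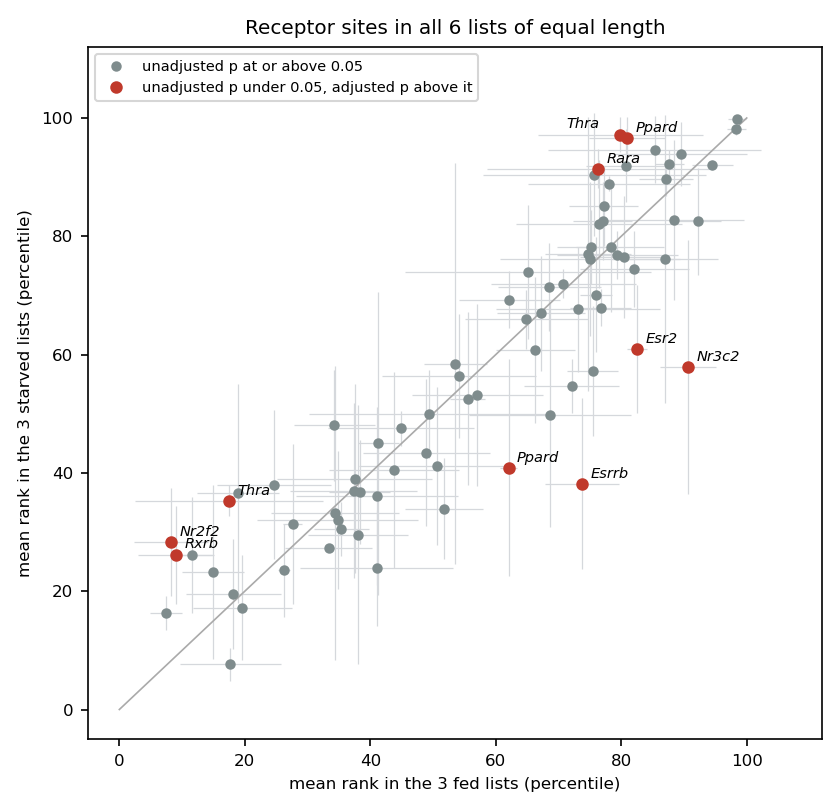
Mean percentile rank in the 3 starved lists (vertical axis) against the 3 fed lists (horizontal axis) for the 78 receptor sites in all 6 lists of equal length, with the SD of each group as bars and equal ranks on the line. The 10 sites at an unadjusted limma p under 0.05 are named, and none passed after adjustment.

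Nuclear receptors act through coregulators, and 15 of their genes were examined in the same way, with 9 coactivators and 6 corepressors. They had 91 fed sites, of which 31 (34.1%, exact 95% interval 24.5 to 44.7) were called in all 6 libraries and 37 (40.7%, exact 95% interval 30.5 to 51.5) were fed-only. At the receptors these shares were 50.6% and 27.6%, and over all fed sites 49.3% and 29.1%. Starved libraries 1, 2 and 3 held 54.9%, 35.2% and 48.4% of the coregulators' fed sites, against 64.9%, 51.6% and 63.6% of all fed sites. The coregulators' sites also ranked lower in the fed lists, with a median fed rank of 49.6 against 62.3 at the receptors and 61.0 over all fed sites. The part of rank in the difference was not tested. Med1, the Mediator subunit that receptors contact, had 4 fed sites, all fed-only. The best of these ranked 32.0, 20.6 and 38.8 in the fed libraries, and of all fed sites with a mean fed rank from 20 to 40, 81.3% were fed-only. Ppargc1a (PGC-1 alpha), the coactivator induced by fasting, had 12 fed sites, 3 in all 6 libraries and 7 fed-only, and its best site ranked 85.7, 75.7 and 81.4 in starved and 92.2, 86.4 and 98.0 in fed libraries. Ncor1, a corepressor, had 4 fed sites and none in all 6 libraries. By contrast, Ncoa3 had 6 of 11 fed sites in all 6 libraries, and Ncoa1, Hdac3 and Tbl1x had no fed-only site.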

How the data were processed

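CTCF ChIP-seq peak lists of 3 starved and 3 fed liver libraries were analysed, 1 list per library. Each peak's score is the deposited value of the authors' peak caller, and no label or header says what it measures. The submitters' processing notes name build mm10 and, without saying what each did, MACS2, HOMER, BWA 0.7.5a, bedtools 2.17, FastQC and SAMtools. How controls, filters and depth were handled is likewise not given. A caller reports more peaks from a deeper or better enriched library.

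Peaks overlapping by 1 bp or more were merged into sites, and scores were ranked as percentiles within each list. Coordinates count from 1. Gene positions and promoters came from RefSeq on GRCm38.p6. Thra, Nr5a1 and Hnf4g had no strand, so either end served as their start. Values per library were compared by two-sided exact permutation over 20 labellings. Rank shifts were tested in lists of equal length with limma 3.58.1 (R 4.3.3), adjusted over all sites at 0.05. Shares have exact binomial (Clopper-Pearson) 95% intervals. The scripts were tested on simulated data.

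The receptors, their classes, the coregulator list and the rule for named sites (14 receptors by their best site, the 10 best-ranked sites in all 6 libraries and fed-only, sites over gene starts, the densest and thinnest receptors, shifted ranks) were chosen with earlier results of these data known. Not every result under that rule is reported here. In all, 20 alternatives were run. Scripts ran on Python 3.11.15 with scipy 1.17.1, numpy 2.4.6, matplotlib 3.10.9 and pandas 2.3.3.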

Additional observations from a re-analysis of the deposited data

How the results depend on the processing

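The mean number of receptor sites was lower in starved than in fed livers under all 15 alternatives (log2 ratio −1.39 to −0.02). In lists of equal length the ratio was −0.02 (exact permutation p = 0.9), and the counts of starved and fed libraries overlapped. No receptor site had a shifted rank under any of 18 alternatives (limma, lowest adjusted p 0.0653). The difference in share of sites (starved minus fed) turned to 0.0043 percentage points with flanks of 50 kb, to 0.0102 with scores of at least 30.4, their median over the 6 lists (the stricter limit), and to 0.0017 in lists of equal length, became −0.039 over gene bodies alone (exact permutation p = 0.1), and ran from −0.0108 to 0.000448 when 1 library was left out. The difference in receptor density relative to protein-coding genes turned to 0.0051 (log2) with flanks of 50 kb, became −0.18 over gene bodies alone (exact permutation p = 0.1), and ran from −0.026 to 0.00579 with 1 library left out. The difference in the log2 ratio of liver-expressed to other density turned to 0.31 with the stricter limit and became −0.41 with the wider class of 25 (exact permutation p = 0.1 in both). The difference in receptors with a site ran from −9.33 with the stricter limit to 0 in lists of equal length. Starved libraries held 61.3% of the receptors' fed sites, but 51.4% with the stricter limit, 97.3% in lists of equal length, 48.1% where a fed site needed 2 of 3 fed libraries, and 50.6% to 66.1% with 1 library left out (50.6% without fed library 2). For liver-expressed minus other receptors that share differed by −3.29 points, by 10.4 with the stricter limit and by −11.5 with the wider class of 25. The coregulators' 46.2% became 92.9% in lists of equal length and ran from 37.4% to 51.7% with 1 library left out. The causes were not tested.

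Rank deviations showed no pairing by replicate number. Same-numbered starved and fed libraries correlated at 0.0119, −0.0276 and 0.012, against −0.0335 to 0.0219 for differently numbered ones. A pairing that leaves no trace in ranks cannot be seen this way, so whether the numbers mark pairs is unknown. With the replicate number as a block the site count differed by −1.14 (log2, exact permutation p = 0.25, the smallest it allows), and no rank was shifted (limma, lowest adjusted p 0.13). Peak lists without read depth cannot tell a lost site from an uncalled one.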
